A study of Homo sapiens and Mus musculus with 20 samples.

Results

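Far intergenic regions were the stretches of accessible chromatin that overlapped no gene of any type and lay more than 100 kb from every start of a protein-coding transcript. The peak intervals of 12 ATAC-seq libraries from SW480 cells, a human colorectal adenocarcinoma line, gave 252173 regions when merged; 2 or more libraries had a peak in 167303, and 14603 of these (8.73%) met the rule on position. The rule used position and presence in any 2 libraries and did not use the treatment. A region with a peak in a single group met it only through that group. In the first experiment, 3 libraries of cells given 10 mM sodium propionate (NaPr) stood against 3 untreated libraries, and in the second, 3 libraries of cells given 1 mM sodium butyrate (NaBu) stood against 3 further untreated libraries with another date. Treatment lasted 12 to 16 h and 50000 viable cells entered each transposition reaction. Compound, dose and date differed together between the experiments and cannot be told apart. SW480 is a cultured line, and whether replicates of a group came from separate cultures is not given in the sources used here, so the p-values refer to these libraries alone.

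Accessible chromatin far from genes is mostly made of distal enhancers and of binding sites of CTCF, the protein that anchors chromatin loops. Distal enhancers are bound by sequence-specific factors such as AP-1, the FOS and JUN dimer that answers growth and stress signals, the TCF/LEF factors that carry Wnt signals, and TEAD and FOX factors, and they can act on a promoter a long way off, often that of a developmental gene at the edge of a gene-poor stretch. Gut bacteria make propionate and butyrate from fibre, and butyrate in particular is known to inhibit histone deacetylases. The comparison asked whether this distal chromatin opened or closed with each compound.

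The libraries held 108442 to 144398 peak intervals. Every list was cut at about its 300000 strongest summits, so the weakest listed peak differed between libraries, from a −log10 p of 3.37 to 9.38, and a missing peak says only that none passed that list. A relative depth recovered from the lists, the genome-wide background pileup, ran from 0.936 to 2.35 in the NaPr experiment and from 2.11 to 3.03 in the NaBu experiment, and overlapped between treated and untreated libraries in both. Of the 12 epithelial marker genes, 10 had a peak at a start in all 12 libraries, among them EPCAM, CDH1, VIL1 and CDX2, while KRT20 had one in 4 libraries and CDX1 in 0. The immune markers PTPRC and CD3E and the liver marker ALB had none, and CD14, COL1A1, SNAP25 and RBFOX3 had one in all 12 libraries.

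The sequences of 9 far intergenic regions are given below as 200 bp around the highest summit in GRCh38, chosen because they are the regions of highest rank, the regions with large changes, and carriers of the AP-1 and CTCF motifs, whose shares differed between higher and lower regions. The AP-1 carrier by NR2F1 and the CTCF carriers by SOX3 and CAPN13 were picked after their values were seen, from the carriers with the largest rises. Capitals mark a match, on either strand, to 1 of the 12 motifs searched.
Highest rank in the 12 libraries, beside MTCYBP13 (chr17:22521273-22521472, plus strand): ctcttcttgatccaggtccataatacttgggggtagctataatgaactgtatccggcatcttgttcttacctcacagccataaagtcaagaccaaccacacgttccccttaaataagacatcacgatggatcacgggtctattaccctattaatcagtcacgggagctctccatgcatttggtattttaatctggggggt
High rank in the 12 libraries, CTCF match, DEFB115 side (chr20:30585327-30585526, plus strand): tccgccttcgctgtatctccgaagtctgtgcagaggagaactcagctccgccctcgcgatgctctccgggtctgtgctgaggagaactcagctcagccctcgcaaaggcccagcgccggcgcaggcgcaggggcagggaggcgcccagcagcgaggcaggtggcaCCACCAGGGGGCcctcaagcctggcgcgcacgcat
Higher after NaPr, AP-1 match, PREP side (chr6:105676203-105676402, plus strand): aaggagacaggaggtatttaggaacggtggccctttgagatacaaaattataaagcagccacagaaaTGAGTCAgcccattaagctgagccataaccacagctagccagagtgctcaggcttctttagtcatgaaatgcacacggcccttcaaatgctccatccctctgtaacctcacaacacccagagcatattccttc
Higher after NaPr, AP-1 match, NR2F1 side (chr5:93273255-93273454, plus strand): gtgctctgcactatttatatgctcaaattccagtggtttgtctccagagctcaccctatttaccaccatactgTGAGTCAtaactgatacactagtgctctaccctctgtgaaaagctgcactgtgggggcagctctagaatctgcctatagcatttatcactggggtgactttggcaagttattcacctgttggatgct
Higher after NaBu, CTCF match, SOX3 side (chrX:140701600-140701799, plus strand): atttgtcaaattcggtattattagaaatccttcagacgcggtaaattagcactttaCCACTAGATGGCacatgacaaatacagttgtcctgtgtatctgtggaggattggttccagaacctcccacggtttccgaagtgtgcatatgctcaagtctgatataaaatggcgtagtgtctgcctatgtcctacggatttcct
Higher after NaBu, CTCF match, CAPN13 side (chr2:30686095-30686294, plus strand): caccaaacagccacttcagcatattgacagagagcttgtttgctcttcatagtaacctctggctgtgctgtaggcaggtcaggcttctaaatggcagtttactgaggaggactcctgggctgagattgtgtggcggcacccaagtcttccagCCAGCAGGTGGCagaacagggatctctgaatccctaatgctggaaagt
Higher after both compounds, FGF18 side (chr5:171538015-171538214, plus strand): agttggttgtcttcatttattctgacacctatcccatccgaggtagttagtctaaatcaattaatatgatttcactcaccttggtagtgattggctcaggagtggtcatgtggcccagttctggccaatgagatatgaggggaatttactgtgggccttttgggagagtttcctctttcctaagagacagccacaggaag
Largest rise after NaBu, MED13L side (chr12:116406687-116406886, plus strand): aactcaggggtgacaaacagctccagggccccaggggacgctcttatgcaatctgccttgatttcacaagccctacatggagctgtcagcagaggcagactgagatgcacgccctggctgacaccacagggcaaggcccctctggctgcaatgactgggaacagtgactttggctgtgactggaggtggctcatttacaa
Largest difference between the compounds, TCF/LEF match, MSX2 side (chr5:174533923-174534122, plus strand): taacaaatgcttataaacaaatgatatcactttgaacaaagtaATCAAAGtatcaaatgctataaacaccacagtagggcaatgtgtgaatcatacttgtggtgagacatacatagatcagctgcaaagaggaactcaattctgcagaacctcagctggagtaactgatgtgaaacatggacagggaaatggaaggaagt

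The motif searched for AP-1 was TGACTCA. That for the cyclic AMP response element, CRE, was TGACGTCA. HNF4, the nuclear receptor of gut and liver epithelium, was searched as CAAAGTCCA. The GATA factors, several of which act in the gut, were searched as AGATAAG. For TEAD, the partner of YAP, the letters were CATTCCA. The TCF/LEF factors of the Wnt pathway were searched as CTTTGAT. The forkhead factors, here FOX, were searched as TGTTTAC. ETS was searched as CCGGAAGT and KLF/SP as CCCCACCC and also CCCCGCCC. CEBP was searched as TTGCGCAA, the CTCF core by its consensus and NFI by its palindrome. Both strands were read, none of the printed strings contains another, and a match is a string in the window and not a bound site.

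The 14603 far intergenic regions lay a median of 207890 bp from the nearest protein-coding start, with quartiles of 139506 and 363460 bp. The farthest was 5501982 bp away, 2287 were more than 500 kb away and 707 more than 1 Mb. The region just inside the limit was at 100008 bp and the one just outside at 99999 bp. Although free of annotated genes, the regions were seldom far from every transcript: the nearest gene of any type was a median of 26932 bp away, and it was a long non-coding RNA for 51.1% of regions, a pseudogene for 27.5% and a protein-coding gene for 8.71%. Within 5 kb, 1114 regions had a long non-coding RNA and 556 a pseudogene.

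The ground that met the rule covered 657 Mb, 22.4% of the sequenced genome, and held 22.2 regions per Mb, against 57.0 regions of every kind per Mb of the whole genome. Chromosome 20 had 54.3 far regions per Mb, followed by chromosome 7 with 33.9 and chromosome 22 with 33.5. The sparsest were Y with 4.02, 4 with 11.7 and X with 12.6 per Mb. Of the far regions, 1373 lay within 1 Mb of a run of at least 50 kb of unknown bases, where centromeres and other repeats make reads hard to place, and results on them carry that limit.

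The median number of libraries with a peak was 6 for far, nearer intergenic, genic and all regions alike, and 12 at starts, while the ends of the distribution differed. A peak was present in all 12 libraries for 2656 of them (18.2%), whereas this held for 27.4% of the 35865 intergenic regions at 1 to 100 kb, 30.3% of all regions and 61.5% of the regions at a start. Conversely 2825 far regions (19.3%) had a peak in 2 libraries, against 15.8% of all regions. Their median width was 533 bp, against 583 bp for all regions. Their windows had a median GC content of 49.0%, against 51.0% in the nearer intergenic regions and 62.5% at starts, and 4.00% of them reached a CpG ratio of 0.6, the usual limit for a CpG island, against 54.5% at starts. These shares and medians are descriptions and were not tested.

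The far regions with the highest mean rank over the 12 libraries stood out in every library. The percentile rank used here is the place of a region's highest −log10 p among all regions of a library, with 100 the strongest and 0 no peak. The highest, at chr17:22521201-22521627, had ranks of at least 99.9 and a fold enrichment of 46.9 to 55.8 in the 12 libraries, and it lay 492 bp from MTCYBP13, a nuclear copy of the mitochondrial cytochrome b gene. It was the single far region whose window shared a 31-base word with the mitochondrial genome, against 12 of all 167303 regions. The next were a pair in the stretch between the end of chromosome 21 and TPTE, at chr21:6369632-6370342 and chr21:6370455-6372319, with fold enrichments of 6.19 to 8.34. The region at chr7:25862123-25862900, 289298 bp from the start of NFE2L3, a transcription factor gene of the NRF family, had fold enrichments of 13.1 to 17.8, and the CTCF carrier at chr20:30585180-30586190 had 27.3 to 33.1. Of these 5 regions, all but the one by NFE2L3 lay within 1 Mb of a run of unknown bases, as did 11 of the 100 far regions with the highest mean rank. At this end of the rank scale little change can be shown. At its low end, listed peaks began well above 0, because 55.4% to 64.2% of all regions had a peak in a library. A peak gained or lost is thus a large change of rank.

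After NaPr, more far intergenic regions had a peak. Untreated libraries had a peak in 6967, 6431 and 6535 far regions, and NaPr-treated libraries in 8017, 7727 and 7262. The groups did not overlap, at 6644 ± 284 untreated and 7669 ± 381 treated (SD, n = 3 each), 115% of untreated (exact permutation test, two-sided, p = 0.1, the smallest that 3 against 3 can give). Over all regions, the number with a peak was 106% of untreated, and those groups overlapped (exact permutation p = 0.2). The share of all peak intervals that lay in far regions was 5.86%, 5.99% and 6.37% in untreated libraries and 6.57%, 6.78% and 6.88% after NaPr, so every treated library was above every untreated one. The means were 6.07% ± 0.265 and 6.74% ± 0.158, 0.666 percentage points apart (exact permutation p = 0.1). With the top 50000 intervals of each list they were 0.260 apart, and with a −log10 p of at least 10 they were 0.434 apart (exact permutation p = 0.2 each).

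The nearer intergenic regions served as a measure of intergenic chromatin at large. For every 100 intervals at 1 to 100 kb there were 32.3, 32.2 and 31.9 far intervals in untreated libraries and 34.5, 33.9 and 32.9 after NaPr. The ratio was higher in 3 of 3 treated libraries, at 33.7 ± 0.823 against 32.1 ± 0.208 (exact permutation p = 0.1), a difference of 1.62. It was 0.755 with the top 50000 intervals of each list (exact permutation p = 0.2) and 1.33 with a −log10 p of at least 10 (exact permutation p = 0.5). The median rank of the far regions with a peak was 61.6 ± 1.30 after NaPr and 63.9 ± 1.13 before, and these ranges overlapped (exact permutation p = 0.2). Such a median falls by construction when a library has a peak in more regions.

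**Figure D1:**
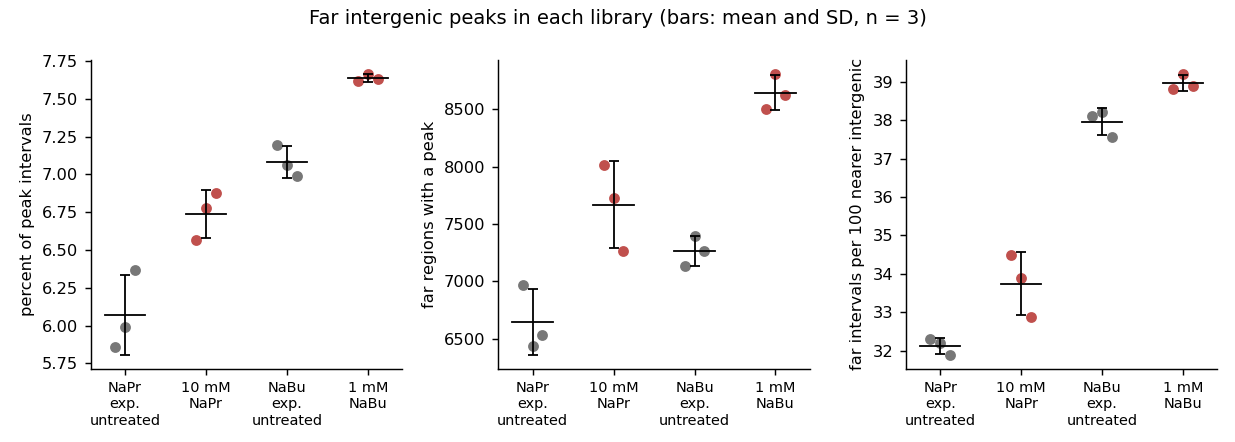
Percent of peak intervals that lay in far intergenic regions, number of far regions with a peak, and far intervals per 100 intergenic intervals at 1 to 100 kb, one point per library with mean and SD (n = 3); the axes do not start at 0. In each panel every treated library lies above every untreated library of its own experiment, and untreated libraries of the experiments differ, with shares of 5.86% to 6.37% and 6.99% to 7.20%.

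Among single regions, higher calls outnumbered lower ones after NaPr. Of 9846 far regions with a peak in at least 2 of the 6 libraries, 568 (5.77%) were higher and 197 (2.00%) lower by limma on percentile ranks at a Benjamini-Hochberg adjusted p of 0.05, where all 124067 regions gave 5.16% higher and 4.1% lower. The share of higher calls was thus near that of all regions and the share of lower calls was below it. In nearer intergenic regions 6.26% were higher and 3.10% lower, so higher calls were 66.8% of their calls. The median change of far regions was 1.87 percentile points, against 0.0389 over all regions. Higher calls made up 74.2% of calls on ranks, 61.0% on log2 fold enrichment centred on each library's median (304 higher, 194 lower) and 97.5% on uncentred log2 fold enrichment (118 and 3), both log2 values being from regions with a peak in every library. Over all regions these shares were 55.7%, 48.4% and 91.6%. Without untreated replicate 2 the fit gave 0 calls of either direction in far and in all regions, although 1721 far regions had an unadjusted p below 0.05 and 1150 of these were higher. Without treated replicate 3 there were 928 higher calls, and without untreated replicate 3 there were 328 lower ones.

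Peaks listed in all 3 NaPr-treated libraries but none of the untreated ones were found at 367 far regions (3.73%), where 2.95% of all tested regions showed this, and the reverse held at 96 (0.975%), where 1.5% of all did. The largest rise was at chr5:171538055-171538402, 118408 bp from the start of FGF18, which encodes a fibroblast growth factor. It had no peak in any untreated library of either experiment, ranks of 72.8, 79.6 and 77.0 after NaPr and of 76.0, 72.0 and 74.7 after NaBu. The NaPr change was 76.5 percentile points (SE 10.1, limma adjusted p = 0.019) and the NaBu change 74.2 (SE 4.52, limma adjusted p = 0.000707). With regions without a peak at their tied mean rank and not at 0, these changes were 55.0 and 53.4. The NaPr call by FGF18 was lost without untreated replicate 2 (limma adjusted p = 0.0517). It was also lost with the replicate number as a block in the fit (limma adjusted p = 0.104). In both settings the same held for all 18 NaPr calls among the named regions.

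The other regions with the largest rises after NaPr differed in the second experiment. At chr3:182683982-182684415, 109088 bp from ATP11B, ranks were 73.5, 67.3 and 73.0 after NaPr against 0 in its untreated libraries, but 50.7 to 58.0 in untreated libraries of the NaBu experiment. The AP-1 carrier at chr6:105675479-105676621, 221417 bp from PREP and between PREP and PRDM1, the gene of the repressor BLIMP-1, went from 0 to 75.4, 69.8 and 64.8, and ranked 93.2 to 97.6 in the NaBu experiment with or without treatment. After NaBu the ATP11B region ranked 71.4 to 77.0, a change of 19.6 (SE 3.30, limma adjusted p = 0.00568). The NaBu change by PREP was 3.53 (SE 0.381, limma adjusted p = 0.00128). That call was lost when regions were ranked by fold enrichment (limma adjusted p = 0.104) and without the mean-variance trend (0.0592). The main fit thus called both regions higher after either compound, from untreated levels that differed between the experiments. By PREP the NaBu change was small, near the top of the rank scale, and its call depended on the setting. At chr20:48488363-48488594, 204090 bp from PREX1, and chrX:39753216-39753578, 324351 bp from BCOR, the gene of a BCL6 co-repressor, ranks after NaPr were 67.0 to 73.0 and 66.6 to 74.4. The X region had no peak in the NaBu experiment.

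Of the regions with the largest falls after NaPr, 3 lay between ZXDA and SPIN4 on X, within 1 Mb of a run of unknown bases. The region at chrX:58231103-58231433 ranked 63.6, 70.6 and 65.9 in untreated libraries and had no peak after NaPr (change −66.7, SE 10.8, limma adjusted p = 0.0243). Its neighbours at chrX:58194448-58194927 and chrX:58186628-58187533 changed by −65.8 each. The largest fall was at chr18:10060374-10060855, 146312 bp from VAPA, a protein of the endoplasmic reticulum membrane, with ranks of 72.6, 78.0 and 77.3 untreated and no peak in the treated libraries (change −76.0, SE 10.1, limma adjusted p = 0.0191). At chr6:150267788-150268107, 100785 bp from IYD, the change was −69.7 (SE 10.6, limma adjusted p = 0.0231).

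More far intergenic regions had a peak after NaBu as well. Untreated libraries of this experiment had a peak in 7129, 7394 and 7263 far regions and NaBu-treated libraries in 8506, 8808 and 8626. The groups lay apart, at 7262 ± 133 and 8647 ± 152 (SD, n = 3 each), 119% of untreated (exact permutation p = 0.1, the smallest possible). Over all regions the number with a peak was 109% of untreated, also without overlap, as was the total of intervals at 110% (exact permutation p = 0.1 each). The far share of intervals was 7.20%, 7.06% and 6.99% untreated and 7.62%, 7.66% and 7.63% treated, with no overlap and means 0.553 percentage points apart (exact permutation p = 0.1). Far intervals per 100 nearer intergenic intervals were 37.96 ± 0.355 untreated and 39.0 ± 0.206 treated, again without overlap (exact permutation p = 0.1). That difference of 1.01 was 0.0198 with the top 50000 intervals of each list (exact permutation p = 1), so it was not seen in lists of equal length. The median rank of far regions with a peak was 66.1 ± 0.415 untreated and 63.2 ± 0.318 treated, with no overlap (exact permutation p = 0.1). The nearer intergenic regions showed the same, at 68.1 ± 0.767 and 65.8 ± 0.315 (exact permutation p = 0.1). Regions without a peak take the lowest places, so these medians fall by construction when more regions have a peak.

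Of 10050 far regions tested after NaBu, 2097 (20.9%) were higher and 1179 (11.7%) lower, where 17.1% of all 123730 regions were higher and 14.5% lower (limma, adjusted p of 0.05). In nearer intergenic regions 20.2% were higher and 10.6% lower. The median change of far regions was 3.601 percentile points, against 2.78 in nearer intergenic and 0.560 over all regions. Higher calls were 64.0% of calls on ranks, where they were 65.6% in nearer intergenic and 54.2% over all regions. In the 5145 far regions with a peak in every library, a filter that leaves out gained and lost regions, they were 58.8% on log2 fold enrichment (990 higher, 695 lower) and 49.7% with each library centred on its median (873 and 882), where all regions gave 58.8% and 48.0%. Peaks in all 3 NaBu-treated but none of the untreated libraries were found at 876 far regions (8.72%), where 6.41% of all tested regions showed this, and the reverse held at 323 (3.21%), where 3.72% of all did. Leaving out any 1 of the 6 libraries left 1898 to 2056 higher and 926 to 1093 lower calls.

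The largest rise after NaBu was at chr12:116406431-116407061, 128738 bp from MED13L, which encodes a subunit of the Mediator kinase module. It had no peak in untreated libraries and ranks of 88.3, 85.0 and 86.4 after NaBu (change 86.5, SE 4.05, limma adjusted p = 0.000707). In the NaPr experiment the same region ranked 60.5, 57.8 and 63.2 untreated and 87.9, 82.9 and 84.9 treated (change 24.7, SE 2.82, limma adjusted p = 0.0156). Treated libraries of both experiments thus reached like ranks from unlike untreated levels. At chr3:89585747-89587305, 478071 bp from the ephrin receptor gene EPHA3 and 581 bp from the mitochondrial pseudogene MTCO2P6, ranks after NaBu were 83.6, 80.9 and 82.6, and no other group had a peak. At chr20:11047400-11048070, 373401 bp from the Notch ligand gene JAG1, they were 79.4, 81.6 and 79.4. The region at chr11:28698538-28698739, 588223 bp from METTL15, rose after both compounds, by 79.4 (SE 4.35) after NaBu and by 60.2 (SE 11.5, limma adjusted p = 0.0305) after NaPr. With ranks taken among regions with a peak, its NaPr change was 33.8 (limma adjusted p = 0.0523), and with regions without a peak at their tied rank it was 38.7. At chr10:34951320-34951926, 119413 bp from CUL2, the NaBu change was 78.3 (SE 4.51).

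The regions that fell most after NaBu had high ranks in untreated libraries of that experiment and mostly no peak in the other. At chr18:33802637-33803362, 220277 bp from NOL4, ranks were 87.3, 87.6 and 86.9 untreated and there was no peak after NaBu or in the 6 NaPr libraries (change −87.3). The same pattern was seen at chr12:105814096-105814782 by the kinase gene NUAK1 (84.2, 85.3 and 86.4 untreated), at chr22:48098339-48098561 by TAFA5 (80.6, 87.3 and 83.0) and at chr7:46207906-46208617 by IGFBP3, the gene of an insulin-like growth factor binding protein (83.6, 84.1 and 80.6). At chr2:235370810-235371443, 122600 bp from AGAP1, untreated ranks were 82.7 to 83.3, and 2 of the 3 untreated NaPr-experiment libraries had a peak as well. Changes of these 4 regions were −85.3, −83.6, −82.8 and −83.1. Apart from the AGAP1 region, the regions of this paragraph entered the set and the fit only through the group where they were high. No test is therefore given for them.

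**Figure D2:**
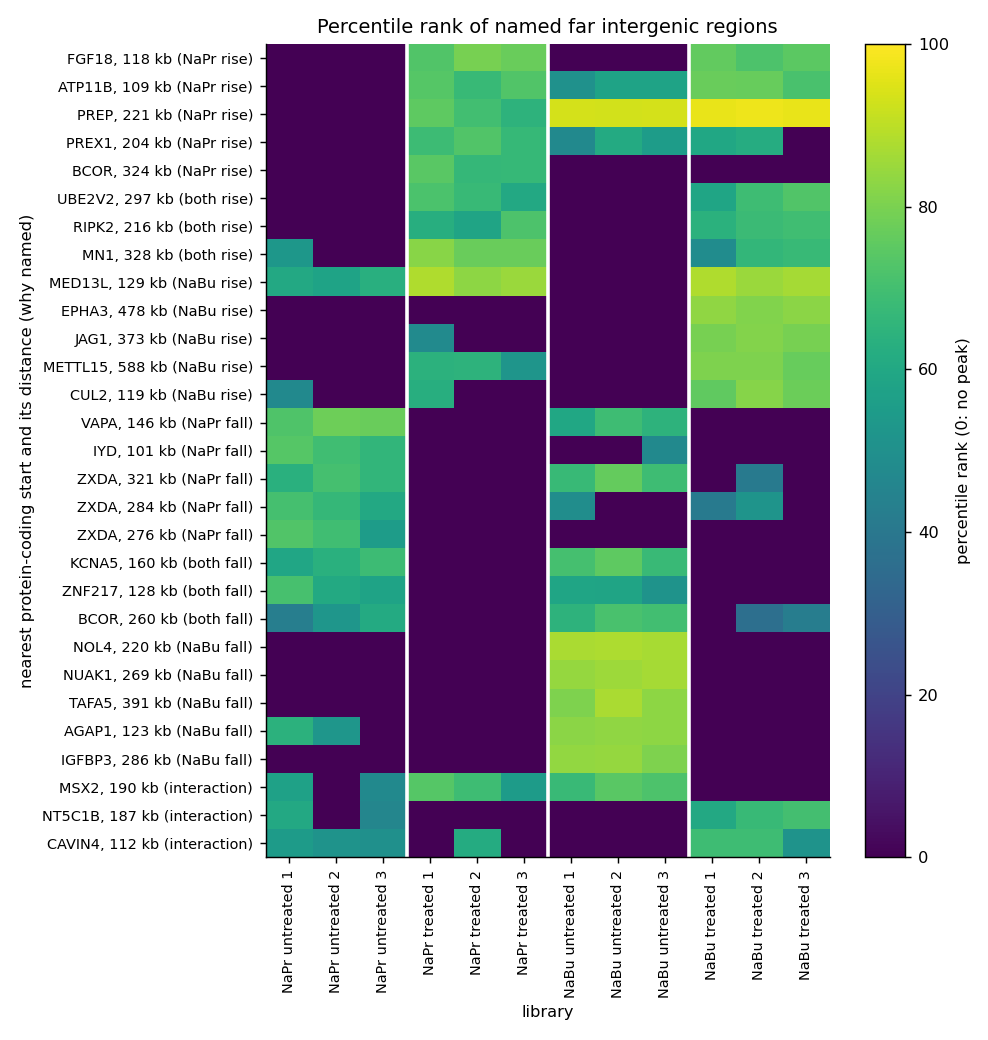
Percentile rank (colour, 0 for no peak, 100 for the strongest) of the 29 far intergenic regions named for a change, by nearest protein-coding start and distance (rows), in each of the 12 libraries (columns, white lines between groups). Regions that appear after treatment are dark in the untreated columns of that experiment, as at FGF18 in both, and several regions lost after NaBu, such as that by NOL4, were dark in every library of the NaPr experiment.

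Distance from genes within the far set made little difference to the shares of calls. After NaBu, 20.2% of tested regions at 100 to 200 kb were higher, 21.3% at 200 to 500 kb, 21.4% at 500 kb to 1 Mb and 22.4% beyond 1 Mb, while 11.8%, 12.5%, 9.43% and 9.78% were lower. After NaPr the shares of higher calls were 5.79%, 5.94%, 5.88% and 4.01%, the last from 18 calls among 449 regions. By contrast, regions at a start had more lower than higher calls after either compound, with 1733 higher and 5070 lower of 21721 after NaBu and 421 and 1624 of 20153 after NaPr. These shares were set side by side and not tested.

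**Figure D3:**
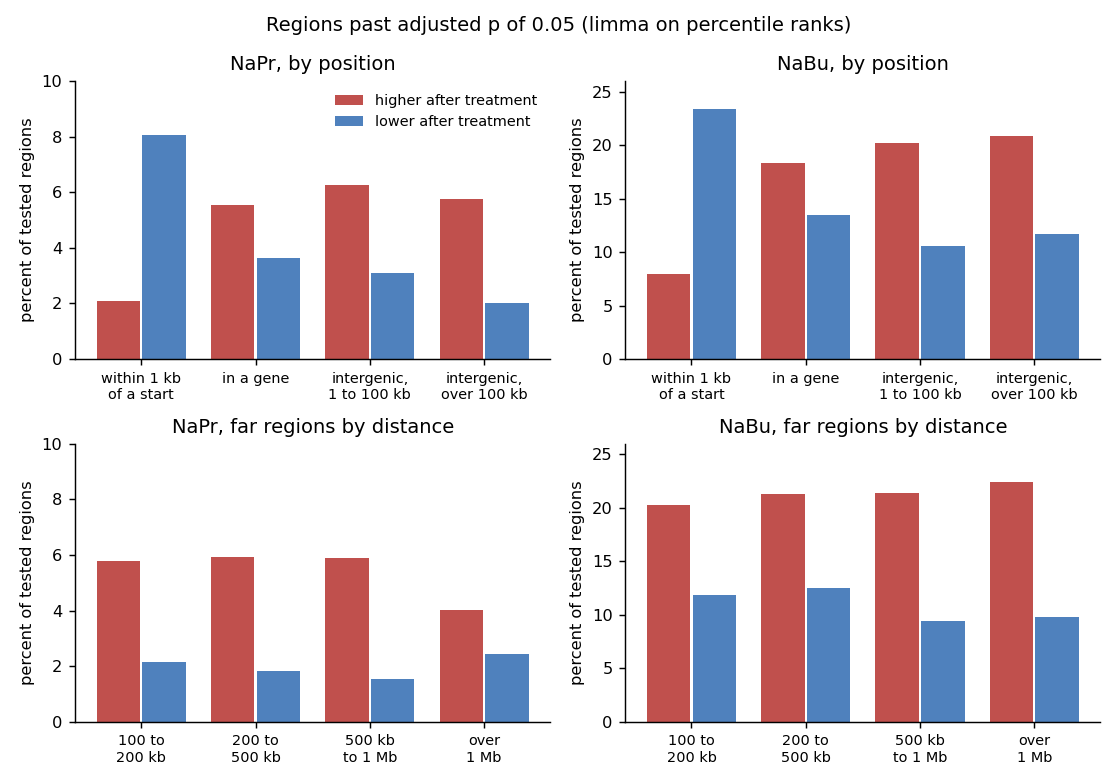
Percent of tested regions higher (red) or lower (blue) at a limma adjusted p of 0.05, by position class (upper) and, for far intergenic regions, by distance band (lower), for NaPr (left) and NaBu (right), with different vertical scales. Lower calls lead at starts and higher calls lead in each intergenic class, and after NaBu the bands from 100 kb to beyond 1 Mb keep 20.2% to 22.4% higher.

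The experiments shared no library, so their calls can be set against each other. Of 5618 far regions tested in both, 211 were higher after both compounds, which is 56.3% of the 375 higher after NaPr and 14.8% of the 1424 higher after NaBu. Over all regions these shares were 56.6% and 16.6%, so far regions were close to the background. Lower after both were 48, or 39.3% of the 122 lower after NaPr and 9.88% of the 486 lower after NaBu, where all regions gave 48.8% and 17.3%. Opposite calls were rare, with 4 regions higher after NaPr and lower after NaBu and 5 the other way, 0.160% of those tested in both against 0.181% over all regions.

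Besides FGF18 and METTL15, the regions with the largest rise after both compounds lay by UBE2V2, RIPK2 and MN1. At chr8:48305026-48305643, 296575 bp from UBE2V2, ranks rose from 0 to 71.9, 67.6 and 60.3 after NaPr and to 58.98, 69.0 and 73.0 after NaBu. At chr8:89541345-89541868, 215948 bp from RIPK2, the kinase of the NOD receptors, they reached 62.6, 58.3 and 72.0 after NaPr and 64.0, 68.2 and 69.5 after NaBu. Neither had a peak in any of the 6 untreated libraries. At chr22:27473563-27474042, 327714 bp from MN1, 1 untreated library of the NaPr experiment had a peak, at 53.0, and the changes were 61.2 (SE 15.2, limma adjusted p = 0.0489) and 60.7 (SE 6.97, limma adjusted p = 0.00149). The NaPr call was lost when regions were ranked by fold enrichment (limma adjusted p = 0.0827), without the mean-variance trend (0.148) and without untreated replicate 2 or 3 or any 1 treated library (limma adjusted p of 0.133 to 0.167). Loss without untreated replicate 2 was common to all 18 named NaPr calls.

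Falls after both compounds, besides those by VAPA and ZXDA, were at chr12:5204275-5204770, 160396 bp from the potassium channel gene KCNA5, at chr20:53737245-53737742, 128353 bp from ZNF217, a zinc finger gene on the long arm of chromosome 20, and at chrX:39817030-39817762, 260167 bp from BCOR. The KCNA5 region ranked 59.1, 63.5 and 68.5 in untreated libraries of the NaPr experiment and 70.6, 75.1 and 67.6 in those of the NaBu experiment, with no peak after treatment in either. The changes by ZNF217 were −63.2 (SE 11.3) and −56.2 (SE 5.48). By BCOR they were −52.2 (SE 12.0, limma adjusted p = 0.041) and −42.3 (SE 11.4, limma adjusted p = 0.0346), and 2 of 3 NaBu libraries kept a weak peak. Its NaBu call was lost when regions were ranked by fold enrichment (limma adjusted p = 0.115), without the mean-variance trend (0.0668) and without any 1 untreated library or treated replicate 2 (limma adjusted p of 0.0651 to 0.103), and its NaPr change was −16.4 with ranks among regions with a peak (limma adjusted p = 0.208). The ZXDA region at chrX:58231103 changed by −57.2 after NaBu (SE 12.1, limma adjusted p = 0.0142), with a peak left in 1 treated library (41.4), and that call was lost when regions were ranked by fold enrichment (limma adjusted p = 0.0602), without untreated replicate 2 (0.056) and without treated replicate 3 (0.0544). This BCOR region and the one that rose after NaPr lie in the same gene-poor stretch.

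The difference between the responses was tested directly with the interaction term of a limma fit on all 12 libraries. It was positive, with NaPr above NaBu, in 743 of 14603 far regions (5.09%, background 5.47%) and negative in 864 (5.92%, background 5.63%), which is close to the share over all 167303 regions. The largest was at chr5:174533772-174534114, 190468 bp from the homeobox gene MSX2, which had a peak in 2 of 3 untreated NaPr-experiment libraries (57.1 and 47.6) and ranks of 73.6, 68.8 and 54.8 after NaPr, but went from 67.7, 74.3 and 71.9 to no peak after NaBu. The NaPr change minus the NaBu change was 102 percentile points (SE 17.3, limma adjusted p = 0.0023). No library of the NaPr experiment had a peak in 3614 far regions, and none of the NaBu experiment in 3568. These entered the interaction fit with a change of 0 in that experiment.

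The AP-1 motif was the most common of the 12 in far intergenic regions and sat at the summit. It was found in 18.3% of their windows, against 16.6% of the nearer intergenic and 15.3% of all regions. Within 50-bp bins, 6.40% and 6.77% of far regions had a match on either side of the summit, against 0.870% to 1.44% in the bins beyond 100 bp. CTCF matches, in 3.25% of far and 3.24% of all windows, fell in the same central bins, with up to 1.12% per bin. TCF/LEF was in 6.36% of far and 4.64% of all windows, FOX in 4.46% and 3.46%, and TEAD in 7.33% and 5.62%. KLF/SP, common at starts (24.8%), was in 5.42% of far and 9.79% of all windows. GATA was in 2.40% of far and 2.09% of all windows, and HNF4 in 0.630% and 0.589%.

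The remaining motifs were sparse in far regions, with ETS in 0.240%, CRE in 0.192%, NFI in 0.0753% and CEBP in 0.0342%, against 0.696%, 0.383%, 0.0610% and 0.0538% of all windows. TEAD matches were repeated 5 or more times in 134 far windows, of which 132 lay within 1 Mb of a run of unknown bases, and without these windows the TEAD share was 6.47%. Far regions with a peak in all 12 libraries had AP-1 in 23.6% and CTCF in 7.49% of windows, against 12.3% and 1.24% of those with a peak in 2 libraries.

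Motif shares by call were set side by side and not tested. After NaPr, AP-1 was in 28.9% of higher, 18.4% of uncalled and 6.60% of lower far regions. Put the other way, of 1849 tested far regions with AP-1, 164 (8.87%) were higher and 13 (0.703%) lower, while of 7997 without it 404 (5.05%) were higher and 184 (2.30%) lower. The same direction was seen over all regions, with 9.11% and 1.90% of AP-1 carriers higher and lower, against 4.42% and 4.51% without the motif. It was also seen in far windows of 40% to 50% GC, where 89 of 903 carriers were higher and 3 lower. Of 3041 regions of this band without the motif, 178 (5.85%) were higher and 66 (2.17%) lower. A pair of AP-1 carriers of this kind is printed above, by PREP and by NR2F1 at chr5:93273123-93273833. The NR2F1 region had no peak in untreated libraries, and ranks of 65.7, 73.9 and 63.5 after NaPr. In the NaBu experiment it ranked 57.3 to 58.9 untreated and 78.9 to 82.3 treated. As this region was picked for its rise, no test is given.

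After NaBu, CTCF was in 6.01% of higher, 4.16% of uncalled and 0.424% of lower far regions, and of 413 tested carriers 126 (30.5%) were higher and 5 (1.21%) lower. Nearer intergenic CTCF carriers were higher in 21.9% and lower in 2.31%, and all CTCF carriers in 21.2% and 3.10%. After NaPr, 28 of 386 far CTCF carriers were higher and 1 was lower. AP-1 carriers after NaBu were higher in 23.1% and lower in 10.5%, against 20.3% and 12.0% without the motif. TCF/LEF was in 10.3% of lower and 8.06% of higher far regions after NaBu, and in 9.14% and 4.58% after NaPr. HNF4 was in 1.70% of lower and 0.286% of higher far regions after NaBu, and FOX in 6.96% and 4.72%. Of the CTCF carriers printed above, that at chrX:140701597-140701984, 196528 bp from SOX3, had a peak only in the 3 NaBu-treated libraries (62.8, 58.6 and 60.6). That at chr2:30685950-30686518, 120928 bp from CAPN13, went from no peak to 52.2, 68.5 and 58.7 after NaBu and had a peak in all 6 NaPr-experiment libraries (62.4 to 80.3). Both were picked for their rise, with no test given.

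**Figure D4:**
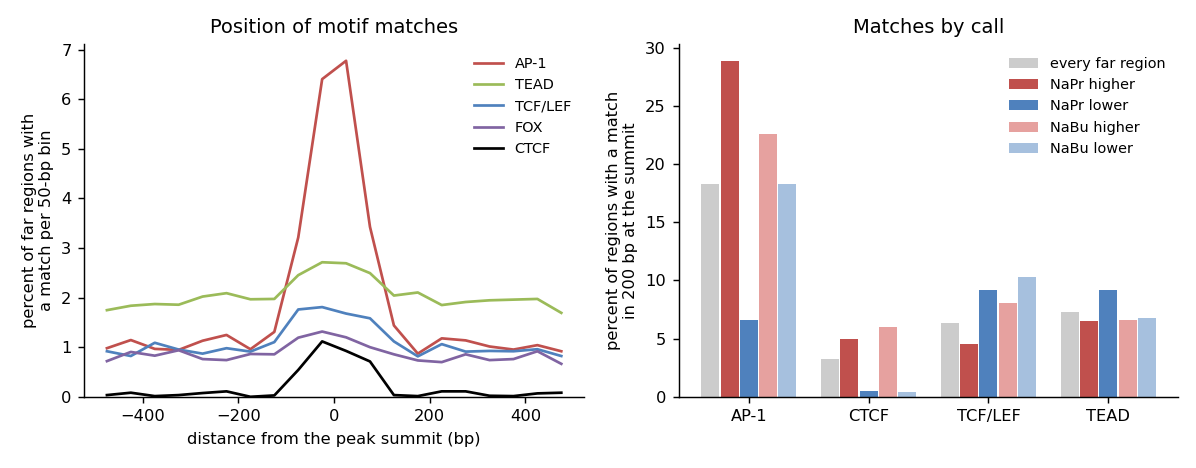
Left, percent of far intergenic regions with a motif match in each 50-bp bin by distance from the summit. Right, percent of regions with a match in the 200 bp at the summit, for every far region and for those higher or lower after each compound; AP-1 is in 28.9% of regions higher and 6.60% of regions lower after NaPr, and CTCF in 6.01% and 0.424% after NaBu.

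Base composition separated the experiments more than the treatments. The far regions with a peak had a median GC content of 50.5% to 51.5% in the NaPr experiment and 48.0% in each library of the NaBu experiment. Windows under 40% GC were 4.82% ± 0.300 of far regions with a peak in untreated and 5.30% ± 0.121 in NaPr-treated libraries, against 13.03% ± 0.172 and 12.0% ± 0.0611 in untreated and NaBu-treated ones (SD, n = 3 each). The groups did not overlap within either experiment, with the treated libraries above the untreated after NaPr and below them after NaBu (exact permutation p = 0.1 each). Of 1544 far regions under 40% GC, 506 could be tested in the NaPr and 1350 in the NaBu experiment, so AT-rich far regions were largely seen in the second alone. Its part in the differences between the experiments was not tested. After NaBu, far regions of each GC band had more higher than lower calls, with 15.2% and 11.5% under 40%, 21.0% and 10.2% at 40% to 50%, 23.2% and 12.5% at 50% to 60%, and 20.3% and 18.0% from 60%. Over all regions from 60% GC, 11.03% were higher and 21.6% lower after NaBu, and in nearer intergenic regions of that band 17.1% and 16.1%. After NaPr the far regions from 60% GC had 39 higher and 39 lower calls of 1098.

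By the rule itself, far regions lie in wide stretches without a protein-coding start. There were 1483 stretches with a far region, with a median of 5 far regions and at most 120, and the top 20 held 10.9% of all far regions. The fullest, from the end of chromosome 21 to TPTE, held 120, each within 1 Mb of a run of unknown bases, and gave 0 higher and 6 lower calls of 97 after NaPr. Away from such runs, the fullest were HS6ST1 to RAB6C on chromosome 2 (117 regions in 1.66 Mb), MID1IP1 to BCOR on X (91 in 1.28 Mb), CADM1 to BUD13 on chromosome 11 (84), the stretch after PTPRU on chromosome 1 (80) and TFAP2C to BMP7 on chromosome 20 (79 in 0.636 Mb), between the genes of a trophoblast and neural crest transcription factor and of a bone morphogenetic protein.

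Stretches with unequal counts after NaBu, chosen from the fullest after their counts were seen and not tested, stand beside 20.9% higher and 11.7% lower over all far regions and 17.1% and 14.5% over all regions. Between SULF2, a heparan sulfatase gene, and PREX1, 15 regions were higher and 3 lower of 47 tested. Between RPIA and AQP7B, next to the centromere of chromosome 2, there were 23 higher and 3 lower of 69, with all 113 regions of that stretch within 1 Mb of a run of unknown bases. Lower calls led between GALR1 and SALL3 on chromosome 18, with 25 lower and 4 higher of 65 tested, between TBC1D22A and TAFA5 on chromosome 22, with 17 and 7 of 53, between HS6ST1 and RAB6C, with 18 and 7 of 66, and between MID1IP1 and BCOR, with 21 and 10 of 73. After NaPr the stretch beside KLF4, a gut epithelial differentiation factor, had 6 higher and 0 lower of 55. It too was chosen after the counts were seen and was not tested. After NaPr, 5.77% of far regions were higher and 2.00% lower, and 5.16% and 4.1% of all regions.

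Of 223 stretches with at least 5 NaBu calls, 193 held calls in both directions, 25 held higher calls alone and 5 lower calls alone. By chromosome, the share of far regions higher after NaBu was 28.5% on 11 and 27.8% on 7, and the share lower was 27.7% on 22, 22.8% on 21, 22.4% on 19 and 21.3% on 18. On these 4 chromosomes the higher share was 17.7%, 8.77%, 13.8% and 13.8%. The chromosomes were picked as extremes after the shares were seen, and the shares were not tested. The lower share was 13 of 58 tested regions on 19 and 39 of 171 on 21. On 21, 141 of 243 far regions lay within 1 Mb of a run of unknown bases.

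**Figure D5:**
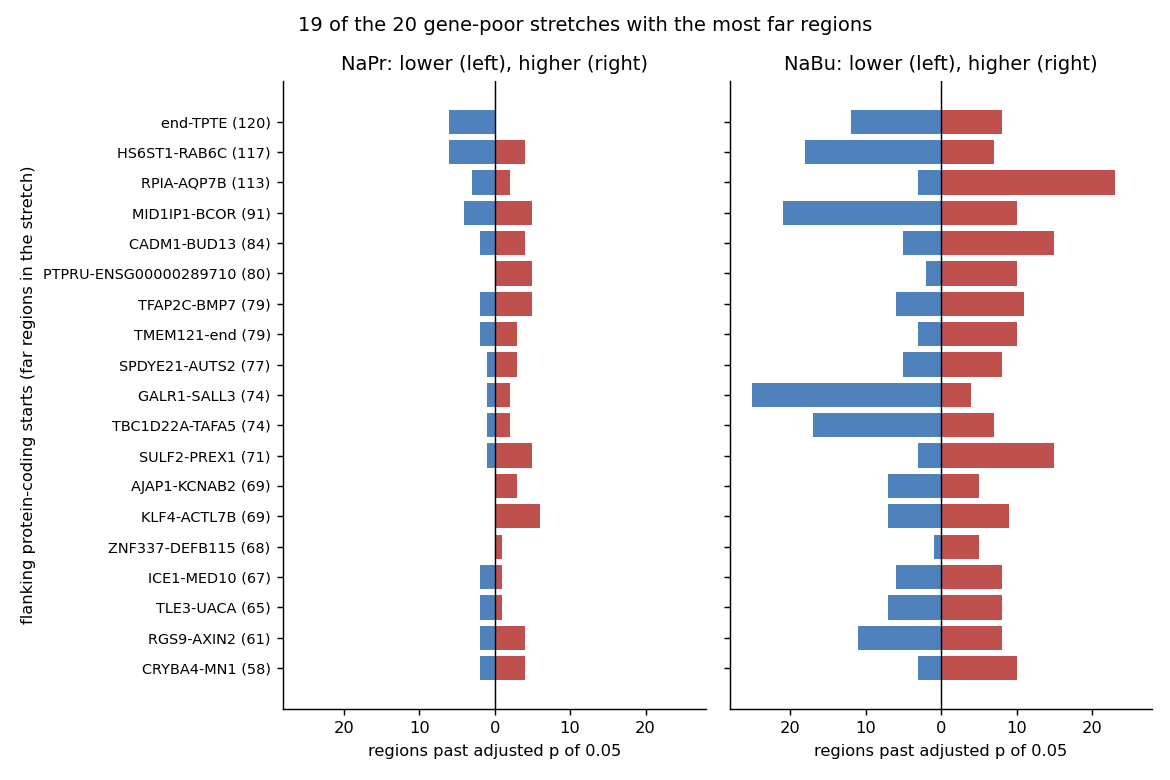
Number of far intergenic regions higher (right, red) and lower (left, blue) at a limma adjusted p of 0.05 after NaPr and NaBu in 19 of the 20 stretches between consecutive protein-coding starts that held the most far regions (number in brackets). After NaBu, lower calls lead between GALR1 and SALL3 (25 lower, 4 higher) and higher calls between SULF2 and PREX1 (15 higher, 3 lower).

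Neighbouring genes were read from 4 lists, each region being assigned to its nearest protein-coding start, which need not be its target. Single genes were picked from the lists after their counts were seen and were not tested. Over all regions, 5.16% were higher and 4.1% lower after NaPr, and 17.1% and 14.5% after NaBu. Intestinal lineage factors had 163 far regions by 13 of 32 genes, of which 10 of 109 tested were higher and 2 lower after NaPr and 26 and 16 of 130 after NaBu. Their median change was 5.06 percentile points after NaPr and 0.979 after NaBu, against 1.87 and 3.601 over all far regions. KLF4 had 39 of these regions, SOX9, a crypt stem cell factor, 26, and KLF5, a factor of proliferating crypt cells, 25. By KLF5, 8 were higher and 3 lower of 23 after NaBu, and by KLF4 4 and 6 of 29.

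Growth and AP-1 genes had 209 far regions by 12 of 30 genes, with 10 higher and 5 lower of 134 after NaPr and 26 and 27 of 151 after NaBu. BMP7 had 43 of them and MYC, the growth regulator, 42. By MYC, 9 were higher and 4 lower of 28 after NaBu and 3 and 3 of 31 after NaPr. By BMP7 the counts after NaBu were 5 and 5 of 23, and by TGFBR2, a TGF-beta receptor gene, 2 and 5 of 31.

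Developmental transcription factors beside gene-poor stretches had 723 far regions by 56 of 75 genes, with 35 higher and 12 lower of 456 after NaPr and 114 and 73 of 518 after NaBu. Genes picked for unequal counts went in opposite directions after NaBu, while others had mixed calls. By SOX11, 4 were higher and 4 lower of 40, and by IRX1 5 and 5 of 27. By TBX3, a T-box factor, 11 were higher and 0 lower of 21, and by ETS1 8 and 0 of 19. By SALL3, a spalt-family zinc finger factor, 1 was higher and 19 lower of 42, and by TSHZ3 2 and 8 of 22.

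Neuronal adhesion and channel genes, many of them long genes in gene-poor stretches, had 481 far regions by 57 of 70 annotated genes. Of these 185 were tested after NaPr, with 7 higher and 0 lower, and 384 after NaBu, with 75 higher and 47 lower. By LRRC4C, a synaptic adhesion gene, 8 were higher and 0 lower of 17 after NaBu and by CNTNAP5 0 and 6 of 10. As shares of tested regions, the 4 lists gave 3.78% to 9.17% higher after NaPr and 17.2% to 22.0% after NaBu, around the 5.77% and 20.9% of all far regions. Their lower shares were 0% to 3.73% after NaPr and 12.2% to 17.9% after NaBu, against 2.00% and 11.7%.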

How the data were processed

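ATAC-seq peak lists of 12 SW480 libraries were used, 3 in each of 4 groups taken from the sample labels, and 8 lists of CT26 cells were not used here. Per the submitters' processing notes, reads were handled with bcl2fastq 2.17.1, cutadapt 1.9.1, Bowtie2 2.3.1 and MACS2 2.1.0, and peaks were called in each library without pooling. The deposited lists give the authors' fold enrichment of each summit as a ratio to local background and its p and q values as −log10. The lists hold no read counts, and the authors' own differential sites, made from reads with DiffBind, were not analysed here. In ATAC-seq, fragments are normally shifted for the transposase, and whether this was done is not given in the sources used here.

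Peak intervals were merged where they overlapped by at least 1 bp and placed on GENCODE 44 (GRCh38, 89054 protein-coding transcripts with a start). In each library, regions were ranked by the highest −log10 p, with 0 where no peak was listed. Percentile ranks were fitted per experiment with limma 3.58.1 (lmFit, eBayes with trend, two-sided, R 4.3.3) on every region with a peak in at least 2 of the 6 libraries, and Benjamini-Hochberg adjusted p-values cover all of them. A gained or lost region thus enters the fit through the group where it is high. A change is a difference of mean percentile rank and not a fold change, and ranks cannot show a shift shared by every region. In a gained or lost region, 1 group is at 0 in each library and shows no spread. Its SE then rests largely on the trend over all regions. By FGF18 after NaPr, the group SDs were 0 and 3.40 and the SE was 10.1. Values per library were compared with exact permutation tests. A relative depth was solved from fold and −log10 p as a Poisson test. Precision was limited by 3 libraries a group and by the end of each list. The fit was run on simulated ranks with shifts added to some regions. Those ranks were not held at 0 for a missing peak, so the run does not cover gained or lost peaks.

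Named regions were, per comparison, the 5 far regions with the largest rise and the 5 with the largest fall among those called, the 5 with the highest mean rank, the 5 per direction called alike in both experiments with the largest smaller change, and the 3 with the largest interaction. The members, gene lists, motifs and this rule were chosen with earlier results of these data known. Identical intervals between replicates were at most 0.796%, so no library was counted as deposited again. Alternatives covered the ranking value, list limits, the filter, the scale, the distance limit, the replicate block and each library left out. Some items are not reported here.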

Additional observations from a re-analysis of the deposited data

Results flagged for a closer look

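The responses to NaPr and NaBu differed, by the limma interaction test at an adjusted p of 0.05, at 1607 of the 14603 far intergenic regions. This count includes regions, such as that by NOL4, with no listed peak in 1 experiment, which count there as unchanged. Of the named regions, 17 passed the interaction test, and the values below are the NaPr change minus the NaBu change in percentile points. Most of these regions were named for a large change in 1 experiment, so a difference between the experiments is in part given by how they were chosen. Some, such as those by ATP11B and MED13L, were called higher after both compounds and differed in the size of the change. The region by PREP was also called after both, but its NaBu call was lost under other settings.

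Among regions with a large rise after NaPr, the difference was 51.7 at chr3:182683982 by ATP11B, 66.5 at chr6:105675479 by PREP, 83.7 at chr20:48488363 by PREX1 and 69.3 at chrX:39753216 by BCOR. Among large falls after NaPr it was −53.8 at chr6:150267788 by IYD, −80.3 at chrX:58194448 and −65.8 at chrX:58186628 by ZXDA. Regions with a large rise after NaBu gave −61.8 at chr12:116406431 by MED13L, −82.3 at chr3:89585747 by EPHA3 and −64.2 at chr20:11047400 by JAG1. Regions with a large fall after NaBu gave 87.3 at chr18:33802637 by NOL4, 85.3 at chr12:105814096 by NUAK1, 83.6 at chr22:48098339 by TAFA5 and 82.8 at chr7:46207906 by IGFBP3.

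The largest differences were 102.155 at chr5:174533772 by MSX2, −101.488 at chr2:18777021 by NT5C1B and −94.8 at chr9:100690351 by CAVIN4. By NT5C1B, 2 of 3 untreated libraries of the NaPr experiment had a peak (60.5 and 46.0) and none of the treated did, while ranks went from 0 to 60.4, 67.3 and 70.3 after NaBu. Compound, dose and date cannot be told apart in any of these differences.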

How the results depend on the processing

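Of 568 far regions higher and 197 lower after NaPr and 2097 and 1179 after NaBu, the counts changed by over 1.5 times under these settings. With the top 50000 intervals of each list, 313 were higher after NaPr and 986 higher and 625 lower after NaBu, 129 were gained after NaPr and 328 after NaBu, and 1035 differed between the compounds, not 1607. With a −log10 p of at least 10, 296 were higher and 75 lower after NaPr, 148 gained and 21 lost. With a peak in at least 4 libraries, NaPr gave 251 and 101 and NaBu 1295 higher. On log2 fold enrichment in regions with a peak in every library, NaPr gave 118 higher and 3 lower, where the median of all regions moved by 0.12, and NaBu 990 and 695; centred on the library median, NaPr gave 304 and NaBu 873 higher. Ranks among regions with a peak, a setting added after seeing the data, gave 113 lower after NaPr. Beyond 200 kb, a smaller set by construction, NaPr gave 276 higher and 88 lower, 202 gained and 48 lost, and NaBu 1125 and 610, 492 gained and 169 lost. Regions from summit windows gave 528 lost after NaBu. Elsewhere the cause was not tested. Leaving out 1 library gave 0 to 928 higher and 0 to 328 lower after NaPr, the 0 without untreated replicate 2.

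Deviations of samples with the same replicate number correlated at 0.0134 to 0.0483 in the NaPr and 0.00488 to 0.0149 in the NaBu experiment. Those with different numbers correlated at −0.0377 to 0.0202 and −0.0157 to 0.00753. Values this small do not show a pairing by number and cannot exclude one. With the replicate block, limma gave 0 higher and 0 lower far regions after NaPr, with 1679 at an unadjusted p below 0.05, and 1855 and 1013 after NaBu. The share of repeats in each region, planned as an alternative, was not run because the reference used here carries no repeat masking. Precision was limited by 3 libraries a group, by lists that end near number 300000, and by the absence of read counts from the values used.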
